A study of Mus musculus with 12 samples.

Results

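The genes described here were Ppargc1a and its relative Ppargc1b, the insulin receptor gene Insr, the insulin receptor substrate genes Irs1 and Irs2, and the forkhead genes Foxo1 and Foxo3. These 7 genes were chosen by name from the 55573 genes of the count table, because several of them are known targets or partners of the cAMP and CREB pathway in liver, and all 7 were found in the table and passed the filter on low counts. RNA was sequenced from astrocyte-enriched cultures of the cortex of newborn C57BL6/J mice, a preparation in which glia grow and other cells are largely shaken off. Every culture carried a lentivirus for 5 days, so the controls were transduced cells as well. The control virus was pCIG3 (pCMV-IRES-GFP), whose label names a CMV promoter and GFP, and the other virus expressed ACREB, a dominant-negative protein that keeps the transcription factor CREB off DNA. The cultures then received PBS or 0.5 µM of vasoactive intestinal peptide (VIP) in the bath for 30 min, followed by 90 min of recovery. The 4 groups were control virus with PBS, control virus with VIP, ACREB with PBS and ACREB with VIP, each with libraries 1, 2 and 3 by their labels. No label ties these libraries to separate cultures or animals. P-values here therefore reflect the spread among these samples alone, and part of it may be technical.

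VIP acts on receptors that raise cAMP, which activates protein kinase A, and this kinase phosphorylates CREB. In fasting liver the same route, driven by glucagon, switches on Ppargc1a, whose protein PGC-1α is a coactivator that docks on nuclear receptors and FoxO1 and raises genes of glucose output and of mitochondria. Insulin works against it: the receptor phosphorylates IRS1 and IRS2, these recruit PI3 kinase, and the kinase AKT then sends FoxO proteins out of the nucleus. Irs2 is itself known as a CREB target in pancreatic islets and as a FoxO target in liver, and PGC-1α is known in many cell types as a regulator of mitochondrial genes.

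Total counts were 16571398 to 20529238 per library. Levels are given as CPM, counts scaled to the library size after TMM adjustment, with the SD over 3 libraries. Principal component analysis set control PBS library 2 apart: its score on component 1, with 38.1% of the variance, was 81.2. ACREB PBS library 2 scored 34.6, and the remaining 10 ran from -29.0 in control VIP library 1 to 7.02. GC content and gene length accounted for 43.7% of the variance of the departures of control PBS library 2 from each gene's mean over all 12 libraries. The next highest shares were 18.9% for ACREB PBS library 2, 16.5% for ACREB VIP library 1 and 14.4% for control VIP library 1. The summed level of 9 astrocyte markers ran from 5276 to 6499 CPM over all libraries, with Gfap at 1051 to 1565 CPM. Markers of other cells were present as well. The 7 fibroblast and mural markers summed to 1925 to 2997 CPM in control PBS and 1868 to 2222.5 in control VIP libraries. With ACREB they summed to 2065 to 3006 CPM in PBS and 2009 to 2713 CPM in VIP libraries. Acta2 alone measured 1718 to 2873 CPM over all libraries, and in both PBS groups library 2 had the highest sum. The 7 microglia markers summed to 616 to 1180 CPM in control PBS libraries, 587 to 1252 in control VIP, 802 to 1483 in ACREB PBS and 757 to 1546 in ACREB VIP libraries. The 5 endothelial markers summed to 14.1 to 44.0 CPM in control PBS, 16.6 to 35.3 in control VIP, 18.02 to 40.2 in ACREB PBS and 19.3 to 35.2 CPM in ACREB VIP libraries. Nearly all of this was Kdr, at 13.5 to 43.3 CPM over all libraries. Cldn5 was at 0 in all 12, and Pecam1, Cdh5 and Tek reached at most 0.62, 0.65 and 0.25 CPM. No adipocyte or hepatocyte marker exceeded 8 counts in any library. In bulk RNA, fewer cells of a type and less RNA per cell cannot be told apart.

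At rest the 7 genes covered a wide range. Per kb of exon, Irs2 was the most abundant in control PBS libraries, at 41.7 ± 3.29 CPM per kb (SD, n = 3), followed by Foxo3 at 18.7 ± 0.479, Irs1 at 13.7 ± 5.91 and Foxo1 at 7.22 ± 0.257. Insr measured 6.35 ± 1.37 CPM per kb, Ppargc1a 5.59 ± 2.22 and Ppargc1b 0.170 ± 0.055. On this scale neighbours in the order overlapped between libraries from Foxo3 down to Ppargc1a. Irs2 stood above all, and Ppargc1b below all, without overlap. With control virus and VIP, Ppargc1a moved from place 6 to place 4 of the 7 at 12.5 ± 1.72 CPM per kb, above Insr at 7.94 ± 1.20 with no overlap. With ACREB and VIP it was also at place 4, with 7.77 ± 1.70 CPM per kb, but overlapped Foxo1 at 7.02 ± 0.569. The middle of the order depends on the length used. Per kb of the longest transcript, Insr stood above Foxo1 in all 4 groups, at 9.34 ± 2.01 CPM per kb in control PBS libraries. On that scale Ppargc1a overlapped Insr in control VIP libraries, at 12.7 ± 1.76 and 11.7 ± 1.76 CPM per kb, and was at place 5 with ACREB and VIP, at 7.92 ± 1.73.

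**Figure D1:**
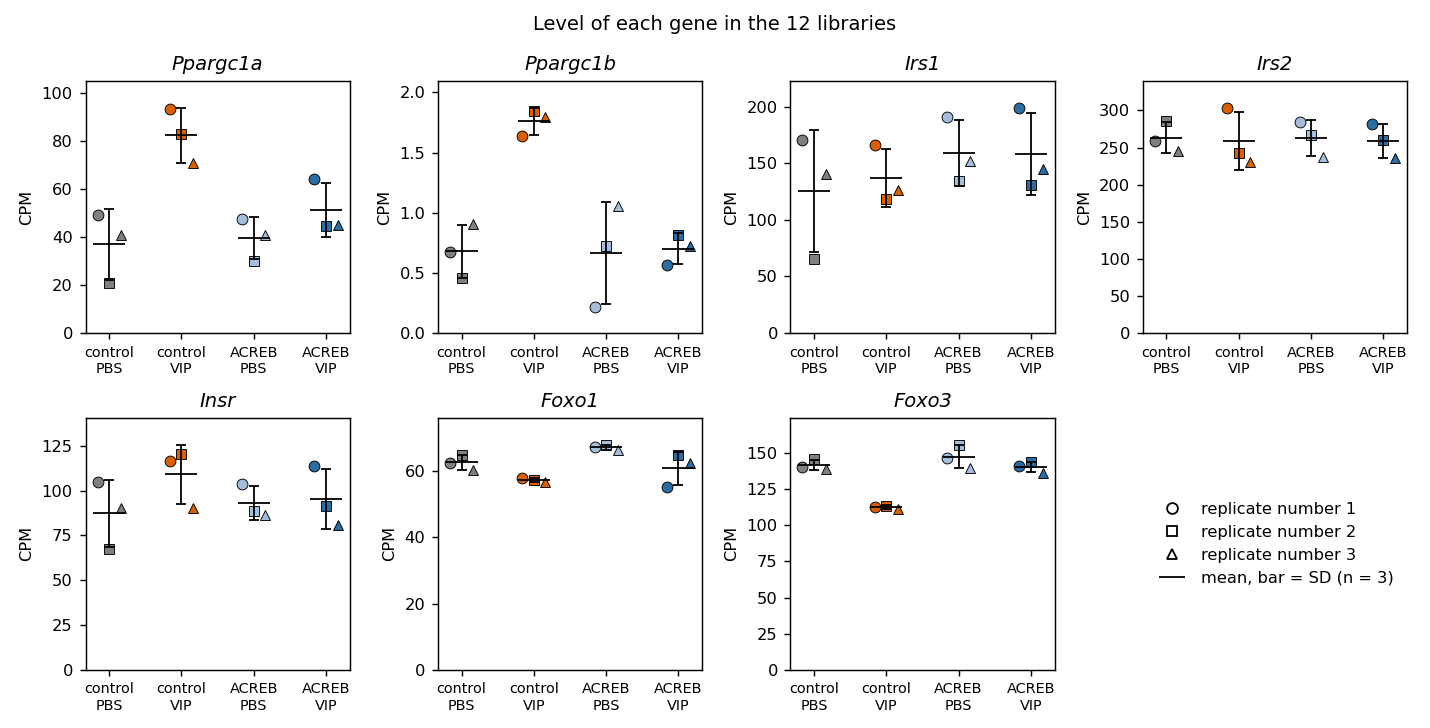
CPM of the 7 genes (vertical axis, linear from 0, a separate scale for each gene) in the 12 libraries by group. Symbols give the replicate number, and the line and bar give the mean and SD of 3 libraries. Ppargc1a and Ppargc1b are highest and Foxo3 is lowest in the control VIP libraries, while Irs2 lies between 231.1 and 303.2 CPM throughout.

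Ppargc1a (ENSMUSG00000029167, minus strand of chromosome 5, 51454250 to 51567726 in GRCm38) encodes PGC-1α. Its levels in libraries 1 to 3 were 49.0, 20.6 and 40.9 CPM with control virus and PBS, and 93.3, 82.8 and 70.6 CPM with control virus and VIP. Each of the 3 VIP libraries lay above each of the 3 PBS libraries. With ACREB it measured 47.3, 30.1 and 41.0 CPM in PBS libraries, and 64.1, 44.4 and 45.1 CPM in VIP libraries. These groups overlapped, and all ACREB VIP libraries lay below all control VIP libraries.

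The group means were 36.8 ± 14.6 CPM with control virus and PBS, 82.2 ± 11.4 with control virus and VIP, 39.5 ± 8.74 with ACREB and PBS and 51.2 ± 11.2 with ACREB and VIP (SD, n = 3). The VIP response with control virus was 2.23-fold, or 1.16 on the log2 scale (SE 0.28, 95% interval 0.55 to 1.77), and ranked 166th of 16761 genes by p. After Benjamini-Hochberg adjustment over all genes it did not pass the quasi-likelihood test of edgeR (adjusted p = 0.140). In the same edgeR test with the replicate number as a block, the response was 1.22 (SE 0.19) and passed (adjusted p = 0.0081). The call therefore depended on the processing, and not on the replicate block alone. It was also made by DESeq2 (1.17, adjusted p = 0.010), in edgeR without a filter on low counts (1.16, adjusted p = 0.018) and in edgeR with offsets for GC content and gene length (0.95, SE 0.13, adjusted p = 0.0034). Over the 21 alternatives run, the log2 response lay between 0.87 and 1.42, and the adjusted p between 5.37e-05 and 0.636.

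Control PBS library 2 held the lowest Ppargc1a level of all, and Ppargc1a has a low GC content of 41.7%. Without this library the log2 response was 0.87 (adjusted p = 0.147, edgeR). After removal of each library's GC and length trend, Ppargc1a measured 43.5, 34.8 and 39.4 CPM in control PBS libraries and 77.1, 72.7 and 71.4 CPM in control VIP libraries. On that scale the control PBS libraries lay closer together, and the VIP libraries again lay above all of them. The correction did not draw library 2 toward the others for every gene. Corrected Foxo1 measured 61.0, 79.2 and 59.7 CPM in control PBS libraries, with library 2 farther from the others than before. Corrected Irs1 measured 169.7, 72.9 and 138.8 CPM there, with library 2 still far below.

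With ACREB the VIP response of Ppargc1a was 0.38 on the log2 scale (SE 0.28, 95% interval -0.23 to 0.98) and did not pass edgeR's test (adjusted p = 0.999998). The difference between the responses, ACREB minus control virus, was -0.78 (SE 0.39, 95% interval -1.64 to 0.07, adjusted p = 0.999967, edgeR). With the replicate block the difference was -0.84 (adjusted p = 0.935, edgeR), so a smaller response with ACREB was not established over all genes tested. Within each replicate number it was smaller in 3 of 3: the log2 ratio of VIP to PBS was 0.93, 2.01 and 0.79 with control virus and 0.44, 0.56 and 0.14 with ACREB. At rest, ACREB and control virus differed by 0.10 (95% interval -0.51 to 0.71, adjusted p = 0.961, edgeR). With VIP, Ppargc1a was lower with ACREB by -0.68 (SE 0.28, adjusted p = 0.746, edgeR). That difference passed only where offsets for GC content and length were joined to the block (-0.64, adjusted p = 0.0021, edgeR). The comparisons share libraries: the control VIP libraries enter both the VIP response with control virus and the ACREB difference with VIP.

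**Figure D2:**
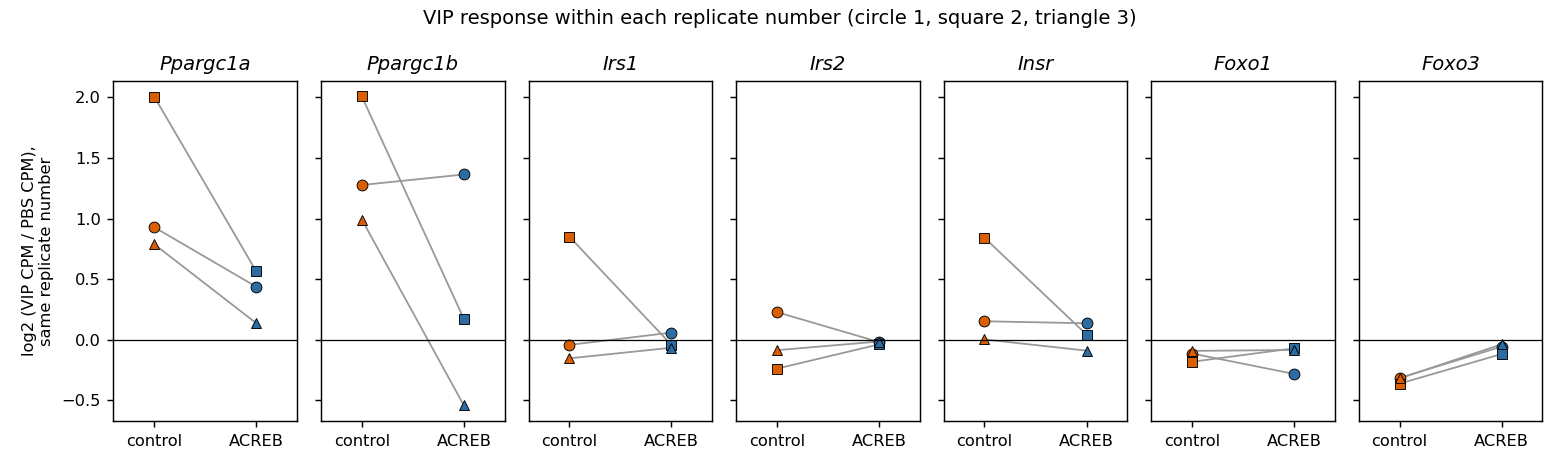
Log2 ratio of VIP CPM to PBS CPM (vertical axis) for each gene between libraries of the same replicate number, with control virus on the left and ACREB on the right of each panel, joined by number. For Ppargc1a the 3 lines run downward, for Foxo3 the 3 lines run upward toward 0, and for Irs2 the 3 ACREB points lie close to 0.

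A window around 1 RefSeq start of Ppargc1a, beside the GENCODE gene end at 51567726 (GRCm38.p6, 250 bases before to 50 after the start), is shown because CREB binds the palindrome TGACGTCA, the CRE, or its 5-base core TGACG. Both strands were searched, and capitals mark the core, which reads CGTCA on this strand. The window of Irs2, whose group means differed least, is shown beside it, and that of Foxo3, which was lower with VIP, follows. RefSeq extends Ppargc1a on to 52115853. Neither the region around that farther end nor any other start of Ppargc1a outside this window was searched here. All 3 genes lie on the minus strand, and the sequences are written 5′ to 3′ on that strand.
Ppargc1a, chr5:51567676-51567975: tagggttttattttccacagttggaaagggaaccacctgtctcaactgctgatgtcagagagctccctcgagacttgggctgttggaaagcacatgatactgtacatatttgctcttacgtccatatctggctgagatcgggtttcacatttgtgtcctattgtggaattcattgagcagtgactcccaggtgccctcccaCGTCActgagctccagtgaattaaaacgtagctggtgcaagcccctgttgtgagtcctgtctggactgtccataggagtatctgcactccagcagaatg
Irs2, chr8:11008880-11009179: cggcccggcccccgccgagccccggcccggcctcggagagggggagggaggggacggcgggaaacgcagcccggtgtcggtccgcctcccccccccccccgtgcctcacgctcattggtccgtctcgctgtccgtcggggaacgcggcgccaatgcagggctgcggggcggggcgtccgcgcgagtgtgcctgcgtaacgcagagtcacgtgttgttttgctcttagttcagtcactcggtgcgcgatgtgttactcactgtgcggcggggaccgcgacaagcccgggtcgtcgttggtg
Foxo3, chr10:42276646-42276945: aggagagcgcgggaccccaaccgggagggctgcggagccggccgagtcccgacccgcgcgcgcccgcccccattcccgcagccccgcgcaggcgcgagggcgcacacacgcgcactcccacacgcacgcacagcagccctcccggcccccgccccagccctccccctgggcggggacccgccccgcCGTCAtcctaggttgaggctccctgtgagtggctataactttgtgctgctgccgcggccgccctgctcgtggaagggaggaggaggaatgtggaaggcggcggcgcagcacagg
Windows were found for 5 of the 7 genes, Ppargc1a, Irs1, Irs2, Foxo1 and Foxo3. The core lay 49 bases before the start shown in Ppargc1a, 118 before it in Irs1 and 64 before it in Foxo3, and none was found in the windows of Irs2 and Foxo1. Of 32851 RefSeq windows of this length, 20.8% held the core. The full CRE, present in 1.79% of windows, and the FoxO core GTAAACA, present in 3.65%, were in none of these 5 windows. The search does not show whether these genes hold either motif elsewhere, such as at other starts. Every full CRE holds the core on each strand.

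Ppargc1b (ENSMUSG00000033871, minus strand of chromosome 18, 61298136 to 61400431 in GRCm38) encodes PGC-1β, a coactivator close to PGC-1α that is known for mitochondrial and lipid genes. It was scarce, with 214 counts over the 12 libraries. It measured 0.675, 0.460 and 0.902 CPM in control PBS libraries and 1.64, 1.85 and 1.79 CPM in control VIP libraries. The control VIP libraries, with 32 to 37 counts each, lay above all the other 9, which held 4 to 18 counts. With ACREB it measured 0.218, 0.726 and 1.05 CPM in PBS and 0.561, 0.818 and 0.724 CPM in VIP libraries. Of these 9 libraries 7 were over the count filter, so the gene did not enter the test through the control VIP libraries alone.

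The VIP response of Ppargc1b with control virus was 2.57-fold, or 1.36 on the log2 scale (SE 0.42, 95% interval 0.44 to 2.28). It did not pass edgeR's test (adjusted p = 0.355), nor any of the 21 alternatives, where the log2 response lay between 1.15 and 1.61 and the adjusted p between 0.070 and 0.852. With ACREB the response was 0.09 (95% interval -0.92 to 1.09, adjusted p = 0.999998, edgeR). The difference between the responses was -1.27 (SE 0.63, 95% interval -2.64 to 0.10, adjusted p = 0.999967, edgeR), and within replicate number 1 the ACREB ratio was the larger, at 1.36 against 1.28. With VIP, ACREB libraries lay below control libraries by -1.32 (SE 0.42, adjusted p = 0.546, edgeR), and without VIP by -0.05 (95% interval -1.05 to 0.96, adjusted p = 0.989, edgeR).

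Insr (ENSMUSG00000005534, minus strand of chromosome 8, 3122061 to 3279617) encodes the receptor tyrosine kinase that binds insulin. It measured 104.7, 67.3 and 90.0 CPM in control PBS libraries and 116.4, 120.7 and 90.2 CPM in control VIP libraries. The groups overlapped, and the lowest value was that of control PBS library 2. The log2 response was 0.32 (SE 0.18, 95% interval -0.07 to 0.72, adjusted p = 0.782, edgeR), and without that library the within-number ratios of 0.15 and 0.00 remained. Corrected for GC content and length, control PBS libraries measured 99.4, 94.9 and 88.6 CPM. With ACREB, Insr measured 103.7, 88.7 and 86.1 CPM in PBS and 114.0, 91.4 and 81.0 CPM in VIP libraries, a response of 0.04 (SE 0.18, adjusted p = 0.999998, edgeR).

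Irs1 and Irs2 encode the docking proteins that the receptor phosphorylates. Irs1 (ENSMUSG00000055980, minus strand of chromosome 1, 82233101 to 82291416) measured 170.7, 65.7 and 140.1 CPM in control PBS and 165.9, 118.4 and 126.1 CPM in control VIP libraries. Control PBS library 2 was again the lowest, and each of the other 2 PBS libraries lay above at least 2 of the 3 VIP libraries. The response was 0.12 on the log2 scale (SE 0.29, adjusted p = 0.885, edgeR) and -0.19 without that library. With ACREB, Irs1 measured 190.6, 134.2 and 151.7 CPM in PBS and 198.7, 130.4 and 145.0 CPM in VIP libraries, a response of -0.01 (SE 0.29, 95% interval -0.65 to 0.63). Library 1 was the highest and library 2 the lowest in each of the 4 groups.

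Irs2 (ENSMUSG00000038894, minus strand of chromosome 8, 10984681 to 11008458) had the closest group means of the 7 genes. It measured 258.8, 286.1 and 245.2 CPM in control PBS, 303.2, 242.7 and 231.1 in control VIP, 284.6, 266.7 and 237.4 in ACREB PBS and 281.1, 260.0 and 235.2 CPM in ACREB VIP libraries. The 4 groups overlapped throughout, with means between 258.8 and 263.4 CPM. The VIP response was -0.02 on the log2 scale with either virus (SE 0.13 in both), with a 95% interval of -0.30 to 0.25 with control virus and -0.30 to 0.26 with ACREB. ACREB and control libraries differed by -0.00 with PBS and with VIP (95% interval -0.28 to 0.28 in both). These intervals leave out changes in Irs2 as large as the Ppargc1a estimate with control virus. Irs1 overlaps 2822 exon bases of the antisense gene Gm9747, and Irs2 162 bases of 9530052E02Rik. The strand setting of the counting is not given in the sources used here, so reads of these partners cannot be told apart, but the partners held 273 and 443 counts in all, against 32105 for Irs1 and 57742 for Irs2.

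**Figure D3:**
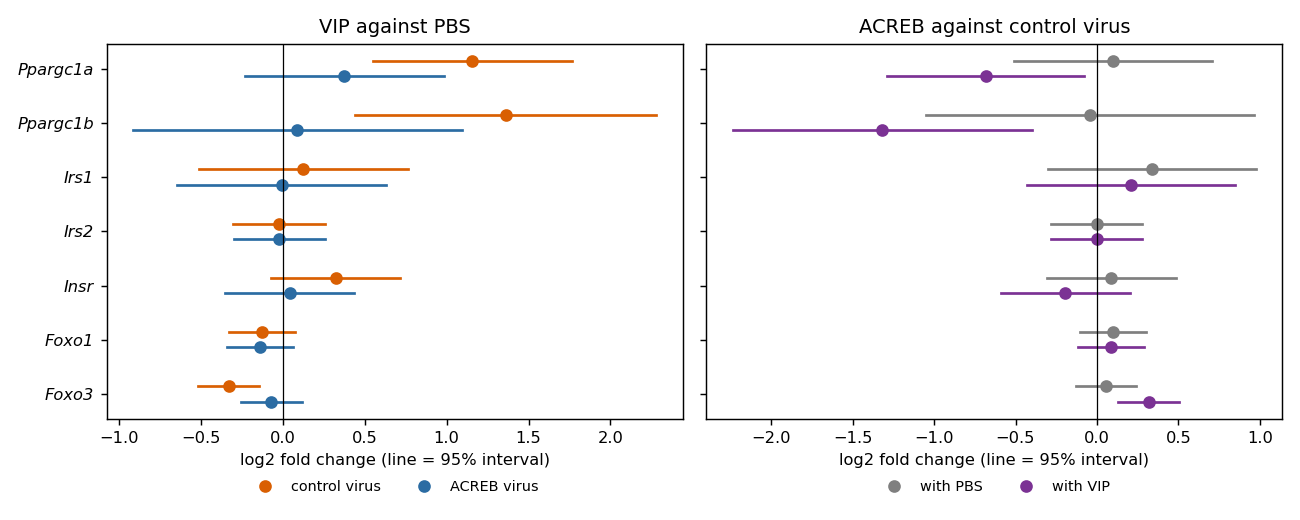
Log2 fold change of each gene with its 95% interval (horizontal axis) for VIP against PBS with each virus (left) and for ACREB against control virus with each treatment (right). The intervals of Ppargc1a, Ppargc1b and Foxo3 leave out 0 for VIP with control virus and for ACREB with VIP, and in this model, which has no replicate block, none of the 7 genes passed after adjustment over 16761 genes.

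FoxO1 and FoxO3 are transcription factors that insulin inactivates through AKT, and they drive genes of cell cycle arrest, stress resistance and, in liver, glucose output. Foxo3 (ENSMUSG00000048756, minus strand of chromosome 10, 42181841 to 42276755) measured 140.4, 145.8 and 138.9 CPM in control PBS libraries and 113.0, 113.5 and 111.4 CPM in control VIP libraries. The control VIP libraries lay below all the other 9. With ACREB it measured 146.6, 155.8 and 139.9 CPM in PBS and 141.0, 143.6 and 136.4 CPM in VIP libraries, which overlapped. The means were 141.7 ± 3.62 and 112.6 ± 1.11 CPM with control virus, and 147.4 ± 7.98 and 140.3 ± 3.68 CPM with ACREB (PBS and VIP, SD, n = 3).

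The VIP response of Foxo3 with control virus was -0.33 on the log2 scale (SE 0.085, 95% interval -0.52 to -0.15), a level 20.5% lower. It did not pass edgeR's test (adjusted p = 0.184). It passed in 3 of 21 alternatives: with DESeq2 (-0.32, adjusted p = 0.00067), and in edgeR with GC and length offsets without (-0.32, adjusted p = 0.046) and with the block (-0.32, adjusted p = 0.0055). The response was between -0.35 and -0.30 in all 21, so its size hardly moved while its adjusted p ran from 0.00067 to 0.930. With ACREB the response was -0.07 (SE 0.085, 95% interval -0.26 to 0.11, adjusted p = 0.999998, edgeR). The difference between the responses was 0.26 (SE 0.12, 95% interval -0.002 to 0.52, adjusted p = 0.999967, edgeR). Within replicate numbers 1 to 3 the log2 ratio was -0.31, -0.36 and -0.32 with control virus and -0.06, -0.12 and -0.04 with ACREB, so the ratio lay nearer to 0 with ACREB in 3 of 3. With VIP, Foxo3 was higher with ACREB by 0.32 (SE 0.085, adjusted p = 0.360, edgeR), which passed with DESeq2 (0.31, adjusted p = 0.0025) and with offsets and block in edgeR (0.31, adjusted p = 0.011). At rest the difference was 0.06 (95% interval -0.13 to 0.24, adjusted p = 0.956, edgeR).

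Foxo1 (ENSMUSG00000044167, plus strand of chromosome 3, 52268336 to 52353221) measured 62.6, 64.9 and 60.4 CPM in control PBS and 57.9, 57.2 and 56.7 CPM in control VIP libraries. With ACREB it measured 67.2, 67.9 and 66.3 CPM in PBS and 55.3, 64.7 and 62.5 CPM in VIP libraries. VIP libraries lay below PBS libraries with either virus. The responses were small, at -0.13 (SE 0.093, adjusted p = 0.782, edgeR) with control virus and -0.14 (SE 0.093, adjusted p = 0.999998, edgeR) with ACREB, and they differed by -0.01 (95% interval -0.30 to 0.27). At rest ACREB libraries lay above control libraries, by 0.10 on the log2 scale (SE 0.093, adjusted p = 0.956, edgeR), and with offsets for GC content and length this difference was -0.01. Gm20402, with 216 counts in all, overlaps 674 exon bases of Foxo1 on the opposite strand, against 13688 counts of Foxo1.

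In the edgeR model without the replicate block, none of the 7 genes passed over all genes in any contrast. For VIP with control virus 0 of 7 passed, against 82 of 16761 genes or 0.489%, 3 of 7 had an unadjusted p under 0.05 against 6.42% of genes. DESeq2 called 2 of 7 there, against 1.43% of the genes it tested, and edgeR with the replicate block called Ppargc1a alone, against 1.63%. Libraries did not overlap in Ppargc1a and Ppargc1b in the higher direction, against 4.53% of genes, nor in Foxo1 and Foxo3 in the lower direction, against 5.27%. For VIP with ACREB 0 of 7 passed (0.0119% of genes), with 0 at an unadjusted p under 0.05 (1.92% of genes), 0 by DESeq2 (0.134%) and 0 with the block (0.0776%). Among the 7, libraries did not overlap in 0 in the higher direction (3.45% of genes) and in Foxo1 alone in the lower direction (3.26% of genes). For ACREB with PBS 0 of 7 passed (0.0358% of genes), with 0 at an unadjusted p under 0.05 (5.3% of genes), 0 by DESeq2 (0.55%) and 0 with the block (0.221%). Libraries did not overlap in Foxo1 alone in the higher direction (4.34% of genes) and in 0 in the lower direction (4.44% of genes). For ACREB with VIP 0 of 7 passed (0.0537% of genes), 3 of 7 had an unadjusted p under 0.05 against 5.69% of genes. DESeq2 called Foxo3 there, against 0.63% of genes, and edgeR with the block called 0 of 7, against 0.364%. Ppargc1a and Ppargc1b did not overlap there in the lower direction (7.06% of genes) and Foxo3 in the higher (6.97% of genes). For the difference between the VIP responses 0 of 7 passed and 0 of all genes tested did (0%), with 0 of 7 at an unadjusted p under 0.05 against 1.2% of genes, and neither DESeq2 nor edgeR with the block called any gene (0% in both). With 7 genes chosen for their roles, these counts describe the genes and carry no test of the group.

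**Figure D4:**
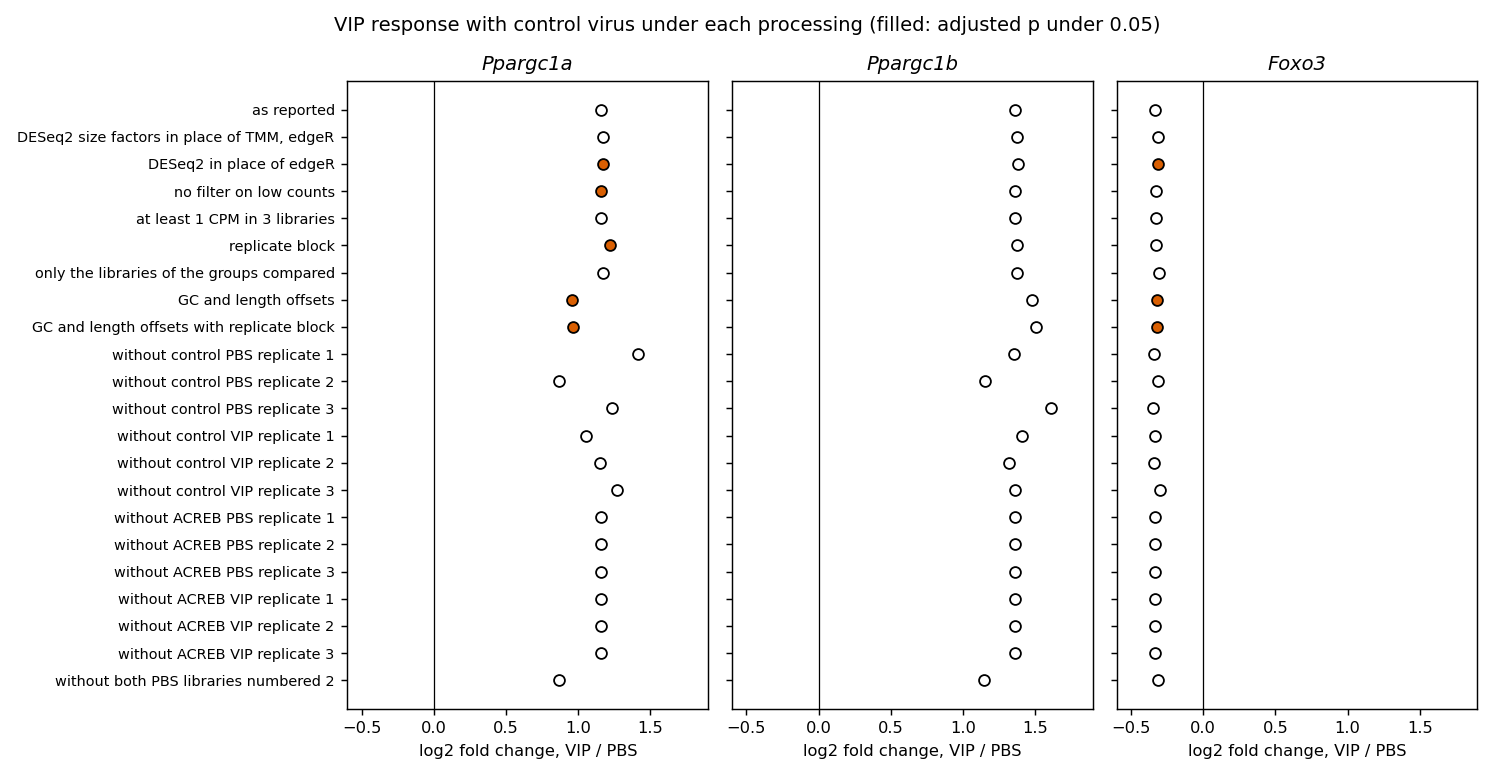
Log2 response to VIP with control virus (horizontal axis) of Ppargc1a, Ppargc1b and Foxo3 as reported and under 21 alternatives. Filled points have an adjusted p under 0.05: 5 for Ppargc1a, none for Ppargc1b and 3 for Foxo3, and every point keeps its side of 0.

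Summed markers of other cells differed between some groups. The 8 oligodendrocyte lineage markers summed to 1146 to 1598 CPM in control PBS and to 1005 to 1130 CPM in control VIP libraries, without overlap, in the comparison in which Foxo3 was lower and Ppargc1a higher. In ACREB PBS and ACREB VIP libraries they summed to 1076 to 1182 and 932 to 1148 CPM. All 7 microglia markers were higher with ACREB, by a median of 0.39 on the log2 scale with PBS and 0.46 with VIP, and none passed edgeR's test. With GC and length offsets and the replicate block, 4 of 7 passed with PBS (Csf1r, P2ry12, C1qa and Cx3cr1) and 3 of 7 with VIP (Csf1r, P2ry12 and C1qa). None of the 8 oligodendrocyte markers passed for VIP with control virus. Their median response was -0.18, and 2 of the 8 were positive. Olig2, a factor of that lineage, had the lowest response, and with the replicate block it fell by 0.81 (adjusted p = 0.0040, edgeR). The highest sum of these markers, 1598 CPM, was that of control PBS library 2. Olig1 alone measured 509 to 1018 CPM over all libraries. Of 7 neuron markers tested, 1 passed for VIP with control virus: Gad1, which makes the transmitter GABA, rose by 1.66 (adjusted p = 0.013, edgeR). Gad1 held at most 13.1 CPM in any library, and only 4 of these 7 markers had a positive response. The 8 neuron markers summed to 301 to 452 CPM in control PBS and 375 to 471 CPM in control VIP libraries, which overlapped. The part of these cells in the levels of the 7 genes was not tested.

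Other genes of the pathways were examined as lists. Of 33 insulin and IGF signalling genes (receptors, PI3 kinase subunits, AKT and TOR kinases, Foxo4 and Foxo6) 31 were tested, and for VIP with control virus 0 passed in either direction in edgeR. Their median log2 response was -0.02, as was that of all genes tested. Foxo6, the FoxO factor known chiefly from brain, measured 5.31 ± 0.732 CPM with PBS and 2.29 ± 0.654 with VIP (-1.21, SE 0.25, adjusted p = 0.069, edgeR), and with the replicate block it passed (adjusted p = 0.030, edgeR), as it did with DESeq2. With ACREB it measured 3.87 ± 0.156 and 3.66 ± 0.937 CPM. Rictor, a subunit of TOR complex 2, and Eif4ebp1, a translation repressor under TOR, had responses of 0.49 and -0.38 and did not pass.

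All 15 inhibitors of insulin signalling were tested, and 0 passed in the edgeR model without the block, with a median of -0.01. Pik3ip1, which restrains PI3 kinase, measured 115.1 ± 12.8 CPM with PBS and 81.6 ± 2.19 with VIP (-0.50, SE 0.10, adjusted p = 0.069, edgeR), and its adjusted p with the replicate block was 0.017 (edgeR), which passed, as it did with DESeq2. With ACREB it measured 105.1 ± 1.34 and 98.3 ± 5.95 CPM. Deptor, an inhibitor of TOR, and the pseudokinase gene Trib2 had responses of 0.91 and -0.47 and did not pass without the block. With GC and length offsets and the replicate block, 1 inhibitor passed in the higher and 2 in the lower direction. Trib2 was among those that were lower (-0.44, adjusted p = 0.031, edgeR).

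Of 20 genes known as FoxO targets 19 were tested, and 0 passed for VIP with control virus, with a median of 0.05. The farthest from 0 were Pdk4, which closes the entry of pyruvate into mitochondria, at 0.50, and Rictor and the ubiquitin ligase gene Fbxo32 at 0.49 and 0.45. Of 25 PGC-1 partners and relatives 23 were tested and 0 passed, with a median of 0.04. Without the block, the corepressor gene Nrip1 (0.71) and the AMP kinase gene Prkaa1 (0.27) did not pass. Gabpa (0.27), which encodes a factor for mitochondrial genes, did not pass either. With GC and length offsets and the replicate block Nrip1 passed (0.54, adjusted p = 0.037, edgeR). In that setting 1 of the FoxO targets tested also passed, in the higher direction. Of 24 genes known as PGC-1 targets in other tissues 21 were tested and 0 passed, with a median of -0.07, and the largest responses were Fndc5 (-0.43), Vegfa (-0.24) and the respiratory complex gene Ndufs1 (0.22). In these 5 lists, no gene passed in the other 4 contrasts in edgeR without the block. Without control PBS library 2 the medians for VIP with control virus were -0.02 for insulin and IGF signalling, 0.03 for its inhibitors, 0.05 for FoxO targets, -0.05 for PGC-1 partners and 0.03 for PGC-1 targets, of which 22 were then tested. The signs of the inhibitors, partners and PGC-1 targets thus turned without this library, and 0 genes of the 5 lists passed.

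The last list held 18 genes of the cAMP and gluconeogenic programme, of which 13 were tested, with a median response of 0.21, and of 0.49 without control PBS library 2. Sik2, a kinase that protein kinase A inhibits and that holds CREB coactivators in the cytoplasm, rose from 43.5 ± 4.87 to 87.9 ± 15.4 CPM (log2 1.01, SE 0.14, adjusted p = 0.0096, edgeR) and was the 1 call. The call was lost without control PBS library 1 (adjusted p = 0.054, edgeR). With ACREB, Sik2 measured 45.7 ± 2.23 and 67.1 ± 8.51 CPM (0.55, adjusted p = 0.999998, edgeR). The related kinase gene Sik1 measured 8.60 ± 3.09 and 19.6 ± 6.64 CPM with control virus (1.19, adjusted p = 0.102, edgeR), and missed the threshold with the block. It passed with DESeq2, with GC and length offsets with or without the block, and without control PBS library 2. The nuclear receptor genes Nr4a1 (1.41, adjusted p = 0.347, with the block 0.0027, edgeR) and Nr4a3 (2.56, adjusted p = 0.128, edgeR) passed only in part of the alternatives. With VIP, Nr4a1 was lower with ACREB by -1.34 (adjusted p = 0.546, edgeR), which passed with the block (-1.29, adjusted p = 0.025, edgeR). With the block 4 genes of this list passed, Sik2, Nr4a1, Nr4a3 and, in the lower direction, the CREB coactivator gene Crtc3. The liver genes of glucose output that PGC-1α is best known for, Pck1 and G6pc, were among 5 genes of the list too scarce to test, with Fbp1, Fbp2 and Tat.

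**Figure D5:**
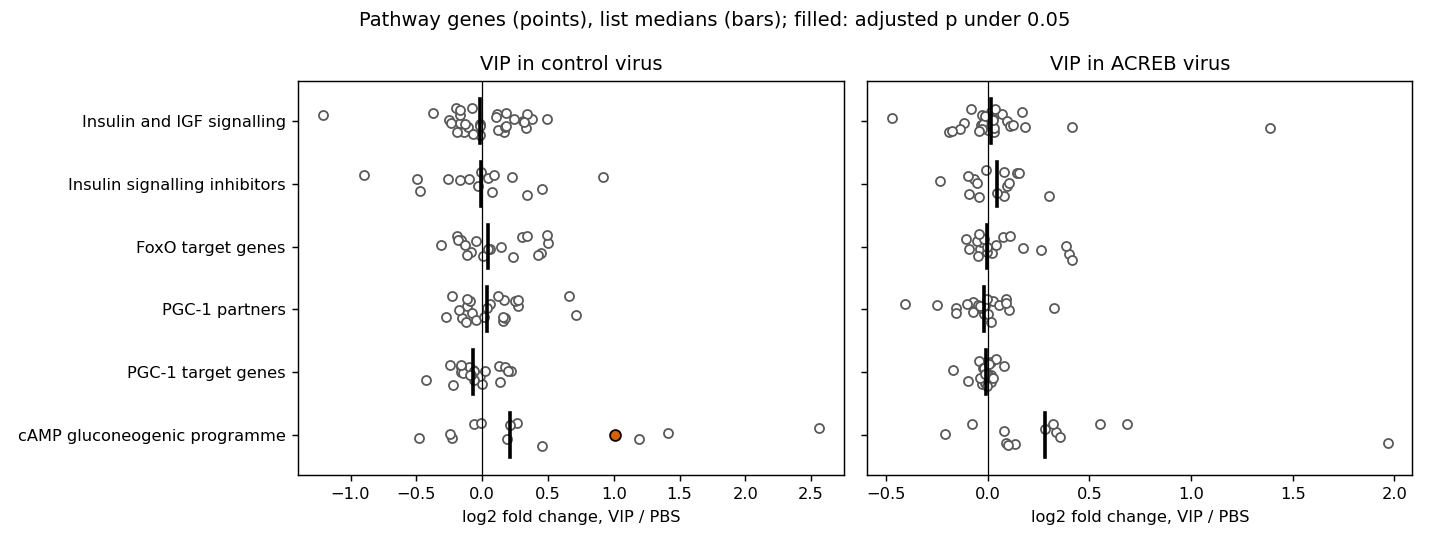
Log2 response to VIP (horizontal axis) of every tested gene in the 6 lists, with control virus (left) and with ACREB (right). Bars are list medians and filled points passed edgeR's test. Only Sik2, in the cAMP and gluconeogenic list with control virus, is filled.

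Likeness to each gene was measured as Pearson's r of log2(CPM + 2) over the 12 libraries, among 12421 genes, as a description of libraries that share depth, groups and replicate numbers. Ppargc1a was most like Kif1b (r = 0.988, and 0.986 without control PBS library 2), a kinesin gene, then Tulp4 (0.979) and Mia3 (0.976). Kif1b measured 821.3 ± 216.7 CPM with control virus and PBS and 1351 ± 87.7 with VIP. Without that library 3 of the 7 genes kept their nearest gene, Kif1b for Ppargc1a, Ccn4 for Ppargc1b and Nuak2 for Irs2. The nearest became Tsc1 for Irs1 (0.961), Fndc3b for Insr (0.947), Tacc2 for Foxo1 (0.926) and Notch2 for Foxo3 (0.952). With all 12 libraries, Ppargc1b was most like Ccn4 (0.960), and Mx2 (0.890) and Lclat1 (0.883) followed. For Irs1 the nearest were Hace1 (0.980), Snrnp48 (0.979) and Dcaf1 (0.977), and for Insr Sorcs1 (0.964), Casp12 (0.957) and Emc2 (0.953). Irs2 was most like Nuak2 (0.919), Boc (0.911) and Frmpd3 (0.860). Foxo1 was nearest to Lmx1a (0.888), Slc25a48 (0.881) and Klhdc7a (0.865), and Foxo3 to Kbtbd11 (0.943), Dapk1 (0.939) and Jade2 (0.924). Among the 7 genes, Foxo3 ran opposite to Ppargc1a (r = -0.81, and -0.88 without control PBS library 2) and to Ppargc1b (-0.89). Ppargc1a and Insr gave 0.84 with all libraries and 0.73 without that library, and Ppargc1a and Irs1 0.54 and 0.04.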

How the data were processed

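Polyadenylated RNA of 12 libraries in 4 groups was sequenced with strand-specific kits. The values are whole-number counts for each Ensembl gene, as deposited, not normalized. The submitters' processing notes name GRCm38 as the build, and as software HTSeq (version 0.11.2), STAR (2.7.1a), Trimmomatic (0.39), edgeR and R (3.6.1). For the strand setting and annotation release the sources used here give nothing. The labels give the library numbers.

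From the deposited counts, edgeR 4.0.16 (R 4.3.3, limma 3.58.1) ran filterByExpr (16761 of 55573 genes kept), TMM, and a quasi-likelihood fit of 4 group means to all 12 libraries, with Benjamini-Hochberg adjustment over all genes at 0.05. Tests are two-sided. The SE was derived as the absolute log2 fold change over the square root of F, and intervals are 95%. Levels are CPM over TMM-adjusted library sizes, and between genes CPM per kb of merged exons (GENCODE, GRCm38). Symbols were matched to 55480 identifiers. Promoter windows come from RefSeq, GRCm38.p6. The fitting was tested on simulated data.

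Replicate numbers come from the labels. Deviations from the group means correlated at 0.132 to 0.679 across genes between libraries of one number, over 0.1 in 18 of 18 pairs. For 12 of 12 libraries the best match had the same number. The numbers were therefore used as pairs in the ratios within replicate numbers and in the alternatives with the block. The main tests leave this pairing out. On log2(CPM + 2) 17 of 18 pairs were over 0.1, with the lowest at 0.086. The model without a block was set as the main one, and blocked values are given where they change a call of a gene named here.

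Alternatives were DESeq2 size factors, DESeq2 1.42.0, other count filters, the replicate block, only the groups compared, GC and length offsets (splines with 5 degrees of freedom) with and without the block, each library left out, and, added after seeing the data, both PBS libraries numbered 2 left out. Besides the 7 genes, the text names list genes that passed in any contrast and the 3 largest responses to VIP with control virus per list at 2 CPM or more. Crtc3, Ucp2, Olig1, Olig2, Tubb3, Col1a1, Col1a2, Kdr and the microglia markers named were chosen after their values were seen. The most similar genes are the 3 highest r per gene. The 7 genes and the lists were chosen with earlier results of these data known.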

Additional observations from a re-analysis of the deposited data

How the results depend on the processing

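Of 7 genes in 5 contrasts, no call was lost, since the model without the block made none. Calls were gained for VIP with control virus by Ppargc1a and Foxo3 with DESeq2 (1.17, -0.32), GC and length offsets (0.95, -0.32) and offsets with the replicate block (0.96, -0.32), and by Ppargc1a alone with the block (1.22) or no filter on low counts (1.16). For ACREB with VIP, Foxo3 gained one with DESeq2 (0.31), and Foxo3 (0.31) and Ppargc1a (-0.64) with offsets and block. Members called were thus 2, 2, 2, 1 and 1 for VIP with control virus and 1 and 2 for ACREB with VIP. Of all genes tested, the same settings called 1.43%, 1.02%, 3.44%, 1.63% and 0.425% for VIP with control virus. For ACREB with VIP they called 0.63% and 3.14%. The replicate block changed no other call among the 7 genes.

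Genes called for VIP with control virus, VIP with ACREB, ACREB with PBS and ACREB with VIP numbered 245, 27, 94 and 119 with DESeq2, 171, 5, 22 and 36 with offsets, 577, 42, 273 and 527 with offsets and the replicate block, 131, 13, 15 and 18 without a filter and 274, 13, 37 and 61 with the replicate block. With only the groups compared the first 3 were 2, 1 and 0. Without both PBS libraries numbered 2 the last 2 were 0 and 47. With 1 library left out the counts ran from 25 to 91, 1 to 5, 0 to 3 and 0 to 41.

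Signs turned only for uncalled values. Irs2 turned with DESeq2 (0.0017 for ACREB with PBS, -0.0098 for the interaction), DESeq2 size factors (0.0076 and -0.014), 1 CPM in 3 libraries (0.0032 and -0.0024, and 0.00086 for ACREB with VIP), no filter (interaction -0.0017), the groups compared alone (0.0024 for VIP with control virus, 0.0065 for ACREB with PBS, 0.0020 for ACREB with VIP) and the replicate block (0.0021 for ACREB with VIP). With offsets Irs2 gave 0.020, 0.048, 0.0019 and -0.047 for VIP with control virus, ACREB with PBS, ACREB with VIP and the interaction, and 0.013, 0.043, 0.0056 and -0.038 with offsets and the replicate block. In the same 2 settings Insr gave -0.014 and -0.015 (VIP with ACREB) and -0.035 and -0.039 (ACREB with PBS), Ppargc1b 0.034 and 0.014 (ACREB with PBS) and Foxo1 0.084 and 0.070 (interaction). Foxo1 gave -0.0067 with offsets alone (ACREB with PBS). Without both PBS libraries numbered 2, Irs1 gave -0.19 and 0.063 and Irs2 0.034 and -0.058 (VIP with control virus, interaction), Insr -0.0038 (VIP with ACREB), and Ppargc1a -0.020, Irs2 0.055 and Insr -0.033 (ACREB with PBS). The cause was not tested.

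With 1 library left out, signs turned within these ranges. For VIP with control virus Irs1 ran from -0.19 to 0.41 and Irs2 from -0.15 to 0.075. For VIP with ACREB Irs1 ran from -0.21 to 0.15, Irs2 from -0.091 to 0.041, Insr from -0.11 to 0.15 and Ppargc1b from -0.34 to 0.59. For ACREB with PBS Ppargc1a ran from -0.18 to 0.36, Ppargc1b from -0.55 to 0.38, Insr from -0.065 to 0.24 and Irs2 from -0.065 to 0.065. For ACREB with VIP Irs2 ran from -0.076 to 0.13. In the interaction Irs1 ran from -0.42 to 0.17, Irs2 from -0.087 to 0.13 and Foxo1 from -0.058 to 0.053. Over the longest transcript in place of merged exons, Insr measured 9.34 and Foxo3 20.7 CPM per kb in control PBS libraries. Ppargc1b, at 4 to 37 counts per library, had the lowest depth of the 7 genes.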
